A study of Mus musculus with 9 samples.

Results

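The transcripts of 7 lymphocyte and NK cell genes were followed on 9 arrays of leukemia cells sorted from mouse spleen. The genes were Cd3g of T cells, Klrk1, Gzma and Gzmb of NK cells and cytotoxic T cells, Cd79a and Cd79b of B cells, and Sdc1 of plasma cells. They were chosen by name, with earlier results of these data known. Each was read from the probe set that carried its symbol alone, with the highest mean over the 9 arrays where a gene had more than 1. This gave 7 of the 22180 genes that could be named on the array. Sdc1 was the only member with another probe set.

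T cells carry a receptor that signals through the CD3 chains, and CD3 gamma, encoded by Cd3g, is one of them. B cells carry surface immunoglobulin that signals through a pair of chains, CD79a and CD79b. NK cells and cytotoxic T cells kill through granules that hold perforin, which opens the target membrane, and granzymes, the proteases that then enter the target. NKG2D, encoded by Klrk1, is an activating receptor of these cells that binds stress-induced ligands on tumor cells. Sdc1 encodes syndecan-1, also called CD138, a heparan sulfate proteoglycan on plasma cells and on epithelium. The spleen is rich in all of these lymphocytes, so that their transcripts in a sorted leukemia sample can come from the leukemia cells or from other spleen cells.

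All samples were MLL-AF9-OSKM leukemia cells, a mouse acute myeloid leukemia that carries the human MLL-AF9 fusion with a GFP tag, and Oct4, Sox2, Klf4 and c-Myc under the tetO promoter. The cells were grown in sub-lethally irradiated C57BL/6J mice, which keep lymphocytes and NK cells of their own, and doxycycline (Dox) in the drinking water switched on the 4 factors. Control mice carried the same cells and had no Dox. Cells were sorted by FACS from spleens of controls and of mice given Dox for 48 h or for 72 h. Each group held 3 samples, which the labels call biological replicates. The study asked whether an immune response accounted for the loss of leukemia cells under Dox. In experiments apart from these arrays, Dox-treated NOD/SCID recipients, which lack T and B cells, mostly survived. This held after an antibody against CD122 or after macrophage depletion, and the paper proposes that immune cells were not the main cause of the loss. The labels do not say whether each sample came from its own mouse, the age of the mice, or the purity of the sort. In such bulk samples, more cells of a type and more RNA per cell cannot be told apart.

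The 15 myeloid genes used to check the label, among them Mpo, Spi1 and Hoxa9, all lay above the background level on all 9 arrays, with list means from 9.10 to 9.22 on the log2 scale. The background level was the 95th percentile of the 1400 probe sets for smell and pheromone receptors, which leukemia cells are not known to use, and ran from 3.66 to 3.73. By this measure, 3 to 6 of the 7 members were above background on a control array, 3 to 5 on a 48 h array and 5 to 7 on a 72 h array. A single array, Dox 72 h 3, stood apart from the rest for these genes. It held the highest signal for 6 of the 7 members, while it held the highest signal for 19.3% of all probe sets. Results that rest on it are given with and without it below.

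**Figure D1:**
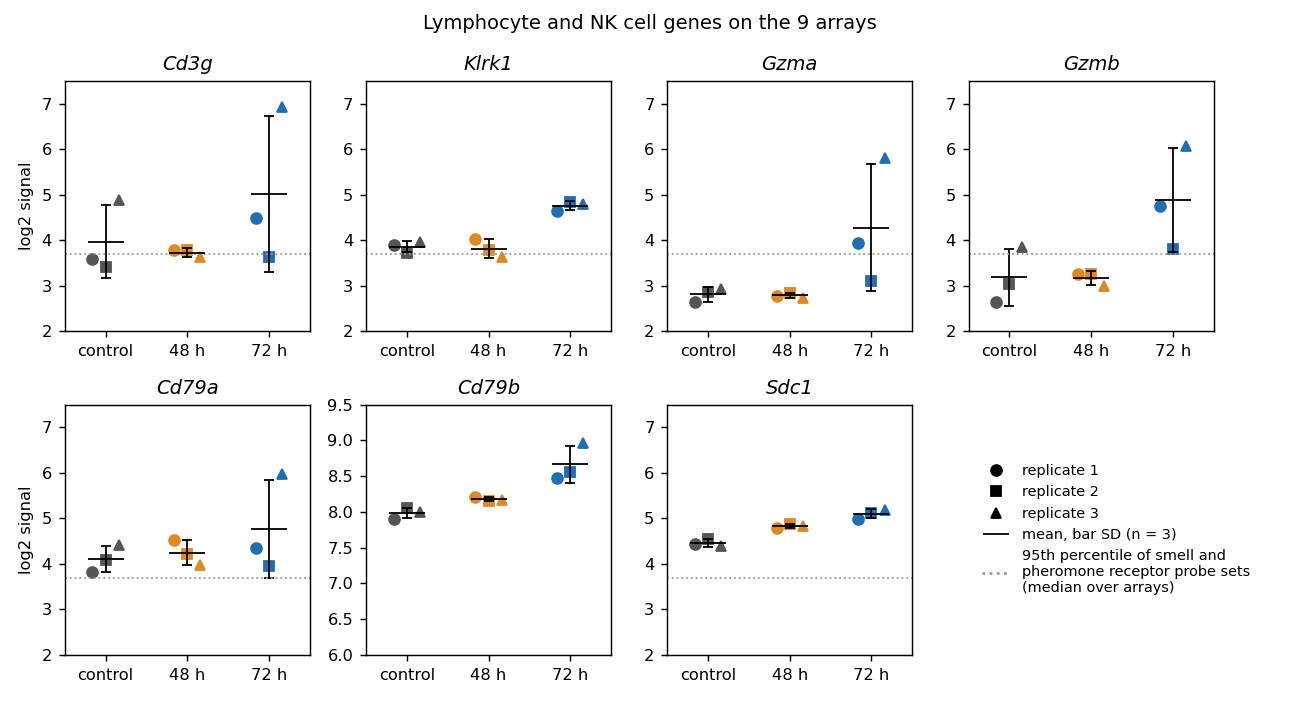
Log2 signal of the 7 members (vertical axis, log2 units) in control, 48 h and 72 h samples, 1 point per array, with the group mean and SD (n = 3). Klrk1 and Sdc1 at 72 h lay close together and above all controls, whereas Cd3g, Gzma, Gzmb and Cd79a at 72 h were spread by over 2 log2 units, with Dox 72 h 3 the highest; the axis of Cd79b covers another range.

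At 72 h of Dox, Klrk1, Cd79b and Sdc1 were higher than in control, by 1.87, 1.601 and 1.56-fold. These 3 of 7 members passed the limma test at an adjusted p under 0.05, compared with 1.16% of all 41345 probe sets that were called higher. As the members were chosen with earlier results known, setting these shares side by side is no test of an excess. In limma 0 of the 7 were called lower (0 at an unadjusted p under 0.05), where 1.33% of all probe sets were. The granzymes had larger mean differences, 2.77-fold for Gzma and 3.25-fold for Gzmb, but did not pass the test, and neither did Cd3g and Cd79a. At 48 h 0 of the 7 passed in limma, with 1, Sdc1, at an unadjusted p under 0.05, where 1.12% of all probe sets were called higher and 0.481% lower.

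Klrk1 was even among the arrays of each group. The controls gave log2 signals of 3.90, 3.73 and 3.96, the 48 h arrays 4.04, 3.78 and 3.63, and the 72 h arrays 4.65, 4.83 and 4.81. All 72 h arrays therefore lay above the other 6, and Klrk1 was the only member whose highest array was Dox 72 h 2. The change at 72 h was 0.90 ± 0.117 (log2, SE, adjusted p = 0.0108 in limma), with a 95% confidence interval from 0.63 to 1.17. At 48 h it was -0.05 ± 0.117 (adjusted p = 0.954). The test of 72 h against 48 h gave 0.95 ± 0.117 (adjusted p = 0.028). Klrk1 was 1 of only 3 probe sets among 41345 called higher at 72 h than at 48 h, 0.00726% of all, and 1 of 7 members, while 0.208% of all were called lower. Without Dox 72 h 3 the change against control was 0.88 (adjusted p = 0.0395), and the change against 48 h was 0.93 and lost its call (adjusted p = 0.109). Of the 9 fits that left out 1 array, the call against 48 h passed in 1, the fit without Dox 48 h 1 (adjusted p from 0.0269 to 0.135 over the 9).

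The other genes of the NKG2D system gave no call. Its signalling adaptors are DAP10, encoded by Hcst, and DAP12, encoded by Tyrobp, which myeloid cells also use. At 72 h the difference was 0.14 for Hcst and 0.29 for Tyrobp (adjusted p = 0.766 and 0.258). Among ligands, Ulbp1 gave 7.38, 7.64 and 7.15 in controls, 6.62, 7.02 and 7.08 at 48 h, and 6.94, 6.80 and 6.67 at 72 h. Every Dox array lay below every control array, by a mean of -0.49 after 48 h and -0.59 after 72 h of Dox (adjusted p = 0.29 and 0.11), which did not pass the test. Groups that lay wholly below control were found for 8% of all probe sets at 48 h and 11.6% at 72 h. The ligands H60b and H60c gave differences of -0.40 and -0.12 at 72 h (adjusted p = 0.435 and 0.619). Of the 11 genes listed for this system 6 were measured, and the Raet1 ligands were not analysed here, so that the list of ligands is incomplete.

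Other genes that define NK cells were not called. The NK receptor Ncr1, also called NKp46, lay between 2.91 and 3.41 on all 9 arrays with a 72 h difference of 0.07 (adjusted p = 0.833). The transcription factor Eomes lay between 2.85 and 3.20, and both genes stayed under the background level on every array. Klrb1c and Klrd1, also NK receptors, differed by 0.25 and 0.24 at 72 h (adjusted p = 0.655 and 0.582), each with its highest value on Dox 72 h 3, of 3.42 and 3.71. Klrb1c was under background on all 9 arrays, and Klrd1 on all but Dox 72 h 3, where the background level was 3.702. Of the 20 NK cell genes, 1, Klrk1 itself, was called higher at 72 h and 0 lower, and the median change of the list was 0.13 against -0.01 for all probe sets. The list mean ran from 3.51 to 3.76 in controls, from 3.51 to 3.58 at 48 h and from 3.68 to 4.16 at 72 h. The share of other cells in these values was not tested.

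The granzymes were low on the control and 48 h arrays and uneven at 72 h. Gzma, the tryptase granzyme A, gave 2.63, 2.86 and 2.93 in controls and 2.77, 2.85 and 2.74 at 48 h, all under background. The 72 h arrays gave 3.93, 3.09 and 5.81. All 72 h values lay above the other 6, but the highest and lowest of them were 2.72 log2 units apart. The change at 72 h was 1.47 ± 0.568 (adjusted p = 0.242), and 0.70 without Dox 72 h 3 (adjusted p = 0.229).

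Gzmb, which encodes granzyme B, a protease that cuts after aspartate, was also uneven at 72 h. Controls gave 2.64, 3.05 and 3.86, 48 h arrays 3.26, 3.27 and 3.0, and 72 h arrays 4.76, 3.81 and 6.08. The lowest 72 h value was below the highest control, so that those groups overlapped, while all 72 h values were above all 48 h values. The change at 72 h against control was 1.70 ± 0.530 (adjusted p = 0.154), and 1.10 without Dox 72 h 3 (adjusted p = 0.273). Gzma and Gzmb varied together over the arrays, with a Pearson correlation of 0.96 over 9 arrays and 0.93 over the 8 without Dox 72 h 3, a description that includes the differences between groups.

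Among the granule genes, perforin was not called and syntaxin-11 was. Prf1, which encodes perforin, lay between 4.78 and 5.23 on all arrays with a 72 h difference of 0.19 (adjusted p = 0.393), and Dox 72 h 3 at 4.94 was not its highest array. Of 17 measured genes of granzymes and cytotoxic granules, 1 was called higher at 48 h and at 72 h and 0 lower. This was Stx11, encoding syntaxin-11, which takes part in the fusion of granules with the membrane. Stx11 gave 6.93, 6.89 and 6.87 in controls, 7.38, 7.42 and 7.35 at 48 h, and 7.46, 7.34 and 7.36 at 72 h. It rose by 0.48 ± 0.062 after 48 h and 0.49 ± 0.062 after 72 h of Dox (adjusted p = 0.00877 and 0.00996). Nkg7, a granule membrane protein counted among NK markers, ran from 8.81 to 10.14 over the 9 arrays, with its highest value in control 3, and differed by -0.20 at 72 h (adjusted p = 0.69).

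Promoters are shown for Klrk1 and Gzmb, which share a match to the AP-1 motif, and for Sdc1, which holds a match to the CACCC motif of the Klf family to which the induced factor Klf4 belongs. Each run holds 250 bases before to 50 after a start of the gene in RefSeq (GRCm38.p6), written 5′ to 3′ along the gene, and capitals mark the match. For Klrk1 the start used lies within the gene, whose outer end is at 129623903. Klrk1 lies at chr6:129623815-129624114, Gzmb at chr14:56262285-56262584, both on the minus strand, and Sdc1 at chr12:8771146-8771445 on the plus strand.
Klrk1: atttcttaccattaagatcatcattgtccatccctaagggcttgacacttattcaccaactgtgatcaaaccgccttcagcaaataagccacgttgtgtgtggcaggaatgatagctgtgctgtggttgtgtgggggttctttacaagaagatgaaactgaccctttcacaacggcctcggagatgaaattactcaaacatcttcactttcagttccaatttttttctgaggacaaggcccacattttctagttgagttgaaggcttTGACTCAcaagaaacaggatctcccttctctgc
Gzmb: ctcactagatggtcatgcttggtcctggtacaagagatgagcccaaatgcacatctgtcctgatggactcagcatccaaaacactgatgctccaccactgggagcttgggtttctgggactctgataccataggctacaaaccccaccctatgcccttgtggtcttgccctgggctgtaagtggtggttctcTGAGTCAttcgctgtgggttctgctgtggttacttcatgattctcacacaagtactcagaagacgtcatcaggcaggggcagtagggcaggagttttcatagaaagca
Sdc1: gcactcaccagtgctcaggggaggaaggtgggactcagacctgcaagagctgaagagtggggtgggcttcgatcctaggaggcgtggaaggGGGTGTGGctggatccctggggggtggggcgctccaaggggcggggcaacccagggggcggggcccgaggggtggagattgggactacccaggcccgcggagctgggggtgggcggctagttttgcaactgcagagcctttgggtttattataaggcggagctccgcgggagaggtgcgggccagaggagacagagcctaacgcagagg
Motifs were searched on both strands in the promoters of 6 members found in the table, and the share of all 32851 promoters that hold each is given beside it. TGACTCA (AP-1) was found 17 bases after the start used for Klrk1 and, as its reverse complement, 58 bases before that of Gzmb, and in 5.2% of all promoters. Counted from the outer end of Klrk1, its match would lie past the 50 bases searched. CCACACCC was found, as its reverse complement, 159 bases before the start of Sdc1, and in 3.56% of all. The direct repeat of interferon regulatory factors was found 97 bases before the start of Gzma, and in 3.44% of all. ATGCAAAT of POU factors (1.74% of all), AACAAAG of SOX factors (5.85%) and CACGTG of Myc (7.15%) were in none of the 6 windows.

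The CD3 gamma gene of T cells showed no change beyond the spread of its arrays. Cd3g gave 3.60, 3.41 and 4.89 in controls, 3.79, 3.78 and 3.63 at 48 h, and 4.48, 3.64 and 6.93 at 72 h. Control 3 was higher than 2 of the 72 h arrays, and Dox 72 h 3 was 2.87 log2 units above the mean of the other 72 h arrays. The change was -0.24 ± 0.765 after 48 h and 1.05 ± 0.765 after 72 h of Dox (adjusted p = 0.966 and 0.543). Without Dox 72 h 3 the 72 h change was 0.09 (adjusted p = 0.96).

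The partners of Cd3g followed it in part. Cd3d, the delta chain, lay between 3.44 and 3.81 on 8 arrays and at 5.32 on Dox 72 h 3. Cd3e, the epsilon chain, had its highest value of 4.94 in control 3 and 4.73 on Dox 72 h 3, with a change of -0.09 at 72 h (adjusted p = 0.893). Cd8b1, a chain of the CD8 co-receptor, was the gene most like Cd3g among 11970 candidate genes of higher signal (Pearson r = 0.97 over 9 arrays). It gave 6.32 on Dox 72 h 3 against 4.14 to 5.16 on the other arrays. The co-receptor gene Cd4 was highest in control 3 at 4.41, and gave 3.49 on Dox 72 h 3. Of 16 measured T cell genes 0 were called in limma at 48 h or 72 h in either direction (at an unadjusted p under 0.05, 0 higher and 1 lower at 48 h, and 2 and 1 at 72 h), with a median change of 0.30 at 72 h against -0.01 for all probe sets. Dox 72 h 3 held the highest value for 9 of the 16 and control 3 for 5.

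Of the B cell receptor chains, Cd79b was called at 72 h and Cd79a was not, and the difference between them was not tested. Cd79b gave 7.91, 8.05 and 8.0 in controls, 8.21, 8.16 and 8.17 at 48 h, and 8.48, 8.56 and 8.96 at 72 h. The 3 groups did not overlap and the 48 h arrays lay between the others. The change was 0.19 ± 0.122 at 48 h (adjusted p = 0.7). By 72 h it was 0.68 ± 0.122 (adjusted p = 0.0329, 95% confidence interval 0.40 to 0.96), and 72 h against 48 h gave 0.49 (adjusted p = 0.186). Without Dox 72 h 3 the 72 h change was 0.53 and kept its call (adjusted p = 0.0256), but the call was lost when any control array, any 48 h array or Dox 72 h 2 was left out (adjusted p up to 0.121).

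Cd79a gave 3.83, 4.08 and 4.42 in controls, 4.53, 4.22 and 3.98 at 48 h, and 4.36, 3.96 and 5.98 at 72 h. All 3 groups overlapped, and only Dox 72 h 3 lay outside the range of the rest. The change at 72 h was 0.66 ± 0.466 (adjusted p = 0.53), and 0.05 without that array (adjusted p = 0.958). The correlation of Cd79a with Cd79b was 0.75 over 9 arrays and 0.12 over the 8 others, and that of Cd79a with Cd3g was 0.94 and 0.63.

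Several genes that define B cells were highest on Dox 72 h 3, as Cd79a was. Ms4a1, encoding CD20, lay between 2.72 and 3.38 on 8 arrays, under background, and at 5.0 on Dox 72 h 3. The B cell transcription factor Pax5 lay between 3.32 and 3.81 on 8 arrays and at 4.21 on Dox 72 h 3, and Vpreb3 between 3.18 and 3.53 and at 4.23. Cd22, an inhibitory receptor of B cells, gave 5.48 on Dox 72 h 3 against 3.78 to 4.60 on the others. Of 19 measured B cell genes, Dox 72 h 3 held the highest value for 13 (68.4%), against 19.3% of all probe sets. The list mean there was 4.99, against 4.27 to 4.51 on the other arrays. The others, Blk, Blnk, Spib, Cxcr5, Tnfrsf13c and Bank1, had their highest value elsewhere, such as Cxcr5 in control 3 at 4.04 (3.71 on Dox 72 h 3). At 72 h 1 of the 19, Cd79b, was called higher and 0 lower, and at 48 h 1, Bank1, a scaffold of B cell receptor signaling. Bank1 rose by 0.75 after 48 h of Dox and stood at 0.25 after 72 h (adjusted p = 0.0401 and 0.42), and leaving out any single array other than control 3 ended its call (adjusted p up to 0.138).

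Syk and Btk, kinases below the B cell receptor that myeloid cells also use, were not called. Syk lay between 8.15 and 8.63 and Btk between 9.18 and 9.47 on all arrays, with changes at 72 h of -0.28 (adjusted p = 0.19) and -0.04 (adjusted p = 0.828). Of 13 measured genes of B cell receptor signaling, 1 was called higher at 72 h, Cd79b, and 1 lower, the kinase Prkcb. Prkcb gave 9.51, 9.62 and 9.74 in controls, 9.17, 9.30 and 9.29 at 48 h, and 8.92, 8.79 and 8.43 at 72 h. It fell by 0.91 on the log2 scale at 72 h (adjusted p = 0.0141), and Dox 72 h 3 was its lowest array. Leaving out control 2 ended this call (adjusted p = 0.056). Among 9 measured pre-B cell genes 2 were called higher at 72 h, Cd79b and Cd93, while Vpreb1, Igll1 and Dntt, which define early B cells, stayed under background on all arrays. Cd93, a receptor that myeloid progenitors also carry, rose by 0.56 after 48 h and 0.72 after 72 h of Dox (adjusted p = 0.00778 and 0.00394).

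Syndecan-1 rose at 72 h, with the 48 h arrays between control and 72 h. Sdc1 gave 4.43, 4.55 and 4.40 in controls, 4.79, 4.87 and 4.84 at 48 h, and 4.99, 5.13 and 5.18 at 72 h. The groups did not overlap and stood in the order control, 48 h, 72 h. The change was 0.37 ± 0.0752 at 48 h (adjusted p = 0.0597), short of the threshold, and 0.64 ± 0.0752 at 72 h (adjusted p = 0.0074, 95% confidence interval 0.47 to 0.81). Between 48 h and 72 h it was 0.27 (adjusted p = 0.222). Dox 72 h 3 was only 0.12 log2 units above the mean of the other 72 h arrays, and without it the 72 h change was 0.60 (adjusted p = 0.0242). The other probe set of Sdc1, at 3.62 to 3.85 on the 9 arrays, near background, differed from control by -0.03 at 48 h and -0.04 at 72 h (adjusted p = 0.954 and 0.824), so that the rise rests on 1 of the 2 probe sets.

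Among genes that act on heparan sulfate, the sugar chain of syndecans, Hpse and Extl3 rose. Hpse, encoding heparanase, which cuts these chains, gave 9.37, 9.56 and 9.45 in controls, 10.24, 10.09 and 10.01 at 48 h, and 10.32, 10.64 and 10.67 at 72 h. It rose by 0.65 ± 0.112 after 48 h and 1.08 ± 0.112 after 72 h of Dox (adjusted p = 0.0314 and 0.0048). By correlation it was also the gene most like Sdc1 over the 9 arrays (Pearson r = 0.98 over 9 arrays, among 11970 candidate genes). Extl3, a glycosyltransferase that starts the chain, rose by 0.62 after 48 h and 0.50 after 72 h of Dox (adjusted p = 0.0241 and 0.0467). Of 13 measured genes of syndecans and heparan sulfate synthesis, 2 were called higher at 48 h, Hpse and Extl3, and 3 at 72 h, with Sdc1, and 0 were called lower. Leaving out 1 array at a time, Hpse at 72 h was called in 9 of 9 fits and at 48 h in 2 (not without any control or 48 h array or Dox 72 h 2), and Extl3 at 48 h in 4 (not without control 1, control 2 or any 48 h array) and at 72 h in 1 (only without control 3). The other syndecan genes gave no call, with changes at 72 h of -0.12 for Sdc2 (adjusted p = 0.601), 0.84 for Sdc3 (adjusted p = 0.249) and 0.33 for Sdc4 (adjusted p = 0.27). Sdc2, at 3.18 to 3.55, and Sdc4, at 3.07 to 3.65, stayed under background on all 9 arrays.

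Plasma cell genes were called in part. Of 12 measured, 3 were called higher at 72 h, Sdc1, Txndc5 and Slamf7, and 2 at 48 h, Irf4 and Txndc5, with 0 lower. Txndc5, a protein disulfide isomerase of the endoplasmic reticulum, rose by 0.63 after 48 h and 0.85 after 72 h of Dox (adjusted p = 0.0113 and 0.0046). Slamf7, a receptor of NK and plasma cells, gave 3.98, 3.88 and 4.26 in controls, 4.26, 3.98 and 4.26 at 48 h, and 4.94, 4.79 and 5.69 at 72 h, a rise of 1.10 (adjusted p = 0.0487) with Dox 72 h 3 the highest array. Irf4, a transcription factor of plasma cells and activated lymphocytes, rose by 1.55 after 48 h and stood at 0.83 after 72 h (adjusted p = 0.00907 and 0.078). The call of Slamf7 was lost on leaving out any control array, any 48 h array or either of the other 72 h arrays (highest adjusted p = 0.156), and that of Txndc5 at 48 h on leaving out control 1 (adjusted p = 0.0546).

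Among the plasma cell genes not called were Jchain, Prdm1, Xbp1 and Mzb1. Jchain, the joining chain of polymeric immunoglobulin, gave 3.93, 4.78 and 7.55 in controls, 6.85, 5.83 and 5.72 at 48 h, and 7.38, 6.95 and 8.72 at 72 h. Control 3 lay above all 48 h arrays and above 2 of the 72 h arrays, and the change at 72 h was 2.26 ± 0.891 (adjusted p = 0.25). Prdm1, encoding the plasma cell factor Blimp-1, differed by -0.02 at 72 h (adjusted p = 0.967), and Xbp1, a factor of the secretory pathway, by -0.07 (adjusted p = 0.561). Mzb1, a chaperone of immunoglobulin, lay between 4.13 and 4.36 on 8 arrays and at 5.48 on Dox 72 h 3.

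**Figure D2:**
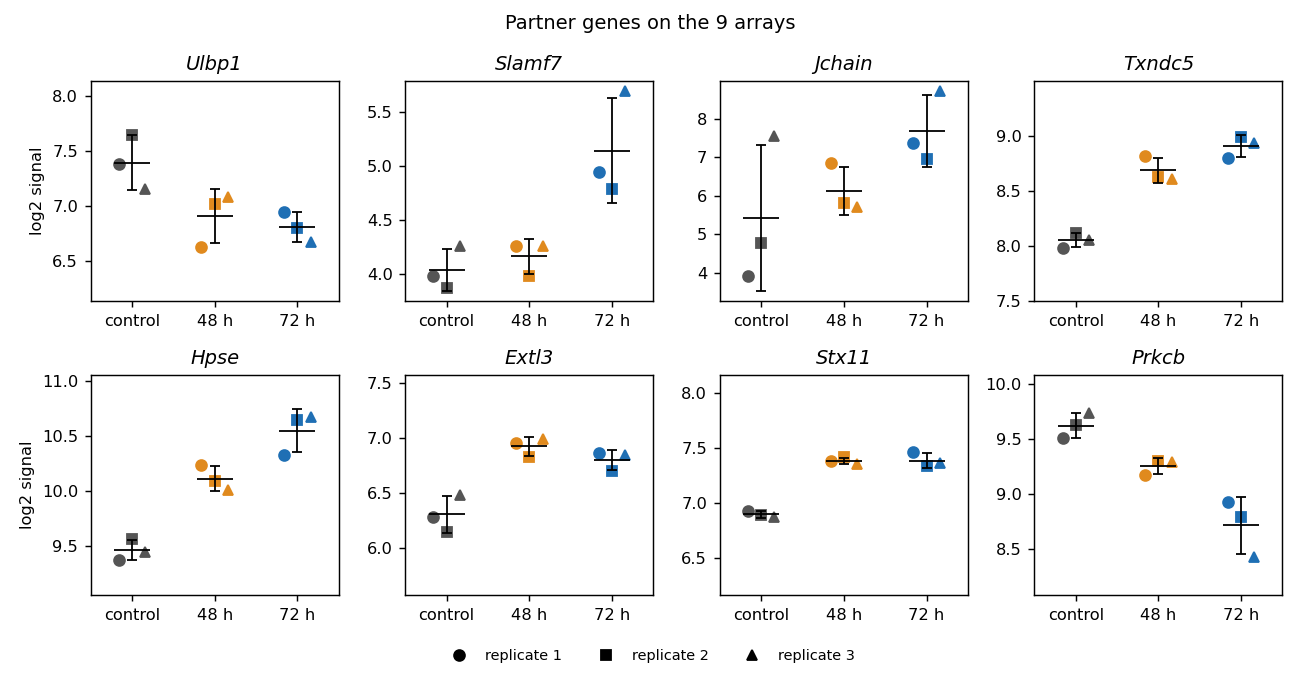
Log2 signal (vertical axis, log2 units) of 8 partner genes of the members in control, 48 h and 72 h samples, 1 point per array, with the group mean and SD (n = 3), shown with a separate axis range for each gene. Txndc5, Hpse, Extl3 and Stx11 on Dox lay above all controls and Prkcb below them, while Jchain at 7.55 in control 3 lay above all 48 h arrays; these 8 were chosen after their values were seen.

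Dox 72 h 3 also had high signals for marker genes of some spleen cells that are not lymphocytes, but not for the endothelial list. That list had a mean of 3.97 there, against 3.87 to 4.02 on the other arrays. The erythroid genes (7 of 10 listed were measured) had a list mean of 5.11 on this array, 4.72 in control 3 and 3.80 to 4.22 on the other arrays, and Dox 72 h 3 held the highest value for 6 of the 7. Klf1, an erythroid transcription factor, gave 5.67 there and 3.52 to 4.09 elsewhere. The genes of red pulp macrophages had list means of 6.42 on Dox 72 h 3 and 6.43 in control 3, against 5.32 to 6.04 on the others, and it held the highest value for 6 of 10. The mean of the myeloid leukemia list did not stand apart, at 9.11 on Dox 72 h 3 within the range of the rest, but its genes differed. Of its 15 genes, 3 were called higher at 48 h (Csf1r, Lyz2 and Ptprc) and 3 lower (Kit, Mpo and Csf3r). The shares of all probe sets were 1.12% and 0.481%. At 72 h 2 were called higher (Csf1r and Lyz2) and 0 lower, where 1.16% and 1.33% of all probe sets were. Leaving out 1 array at a time, Csf1r at both times and Kit at 48 h were called in 9 of 9 fits. Lyz2 was called in 4 at 48 h and 2 at 72 h, and Csf3r at 48 h in 3. Dox 72 h 3 was the highest array for 2 of the 15, Cebpa at 7.295 and Csf1r at 9.32. It was the lowest for Ptprc, Itgam, Spi1, Cd33, Hoxa9 and Meis1, with Cd33 at 10.55. The part of other spleen cells in the values of Cd3g, Gzma, Gzmb and Cd79a on this array was not tested.

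**Figure D3:**
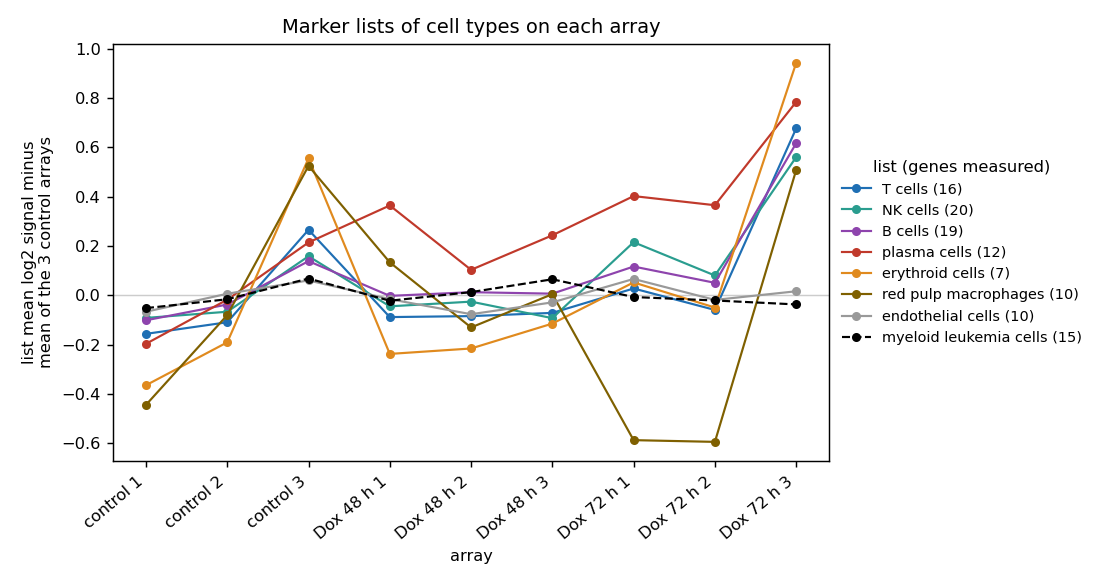
Mean log2 signal of 8 marker lists on each of the 9 arrays (horizontal axis), less the mean of the 3 control arrays (vertical axis, log2 units), with the number of genes measured in the key; lines only join the points of a list. T, NK, B, plasma and erythroid cell lists are highest on Dox 72 h 3, the T cell mean at 4.82 against 3.99 to 4.41 on the other arrays. The red pulp macrophage list is high there and in control 3. The mean of the myeloid list is flat, and the endothelial list is not raised on Dox 72 h 3.

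The 72 h changes of the members were also fitted without Dox 72 h 3. As that array was singled out by the values of these same members, the comparison is a description and no separate test. Left out, the array moved the 72 h change of Cd3g from 1.05 to 0.09, of Cd79a from 0.66 to 0.05, of Gzma from 1.47 to 0.70 and of Gzmb from 1.70 to 1.10. The changes of Klrk1 (0.88), Cd79b (0.53) and Sdc1 (0.60) were called with and without it. When control 3 was left out as well, their changes were 0.93, 0.54 and 0.57 and none was called in limma (adjusted p = 0.0708, 0.0617 and 0.0606), with 7 arrays in the fit and 5 of 7 members at an unadjusted p under 0.05. Non-overlapping groups were found for 4 of 7 members at 72 h against control (Klrk1, Gzma, Cd79b and Sdc1), compared with 9.1% of all probe sets in that direction. At 72 h against 48 h there were 5, with Gzmb added, against 7.13%, and at 48 h against control 2, Cd79b and Sdc1, against 7.37%.

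**Figure D4:**
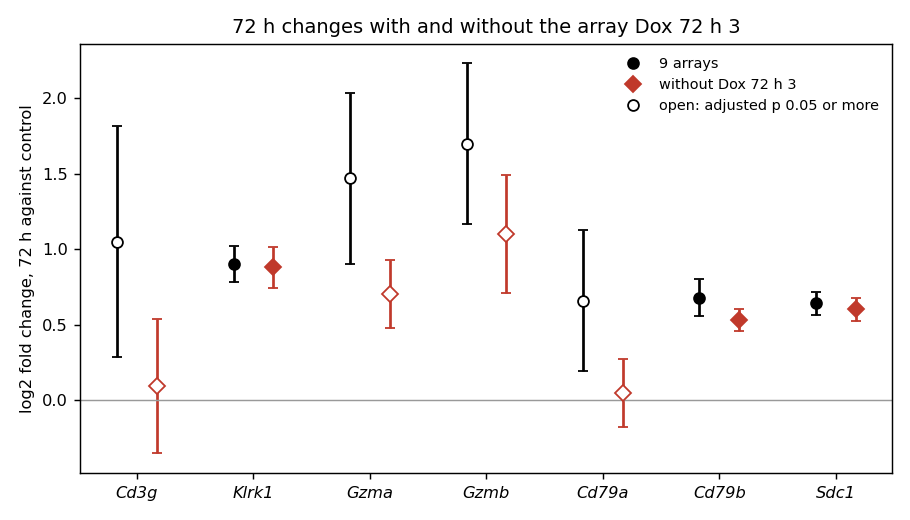
Log2 fold change at 72 h against control with its SE (vertical axis, log2 units) for the 7 members (horizontal axis), from all 9 arrays (circles) and without Dox 72 h 3 (diamonds); filled symbols passed an adjusted p of 0.05. Klrk1, Cd79b and Sdc1 are filled in both fits, and Cd3g and Cd79a lie near 0 without the array.

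The genes most like each member over the 9 arrays were taken by Pearson correlation among probe sets with 1 symbol and a mean signal above the median of all. Predicted genes, small RNAs and smell and pheromone receptors were left out, and dimmer genes could not be chosen. For Gzma they were Cldn13 and Pias4 (r = 0.982 for each over 9 arrays), for Gzmb H2-DMb2 and Rdm1 (r = 0.985 and 0.983), and for Cd79a Sla2 and Prkce (r = 0.976 and 0.966), all 6 with their highest value on Dox 72 h 3. Trim10 was the next most like Cd3g (r = 0.962). For Klrk1 they were Mocs2 and Ethe1 (r = 0.962 and 0.954), both highest on Dox 72 h 2, as was Klrk1. For Cd79b they were Mpnd and Dmac1 (r = 0.989 and 0.987), and for Sdc1, after Hpse, Tspan17 (r = 0.979). The 9 arrays share the differences between groups, so that these values are a description of likeness and carry no test.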

How the data were processed

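RNA of sorted leukemia cells was measured with 1 Affymetrix array (Mouse Gene 2.0 ST) for every sample. The deposited values are log2 signals per probe set that the authors normalized between arrays. The study's methods name the oligo package with RMA, and the submitters' notes name MAS5 with no version, so the exact route is unsure. RMA shrinks differences of dim probe sets. No detection calls or scanner files were used here, the number of arrays limits the precision, and 0 value columns lacked a sample. Samples were grouped by their labels. The platform annotation gave 1 symbol for 23521 of 41345 probe sets, several for 1820 and none for 16004.

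Groups were compared with limma (version 3.58.1, R 4.3.3), with 1 mean per group over 9 arrays and eBayes (6 residual degrees of freedom), two-sided, with Benjamini-Hochberg adjustment over all probe sets and a threshold of 0.05. The labels call the samples of a group biological replicates but do not tie them to separate mice. The p-values therefore cover the spread among these samples only, and how much of it lies between mice is not known. Differences are of mean log2 values. Both time points share the control arrays. The members and the 15 gene lists (167 of 186 genes measured) were chosen with earlier results of these data known. All members, the partners named in a fixed list, up to 4 called genes of each list by p, and the 2 genes most like each member were to be named; other list genes were named after their values were seen. List genes that matched no probe set were not analysed here. The script was tested on simulated data. Alternatives were other scalings, a filter on dim probe sets (log2 signal over 3.81), a trended prior, fits on the groups compared only, array weights, a replicate block, the other probe set of Sdc1, leaving out each array, and, added after seeing the data, leaving out control 3 and Dox 72 h 3 together. Sequences are from RefSeq (GRCm38.p6).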

Additional observations from a re-analysis of the deposited data

Results flagged for a closer look

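Klrk1 differed between the time points. Its change at 72 h exceeded its change at 48 h, both against the same controls, by 0.95 on the log2 scale (limma, adjusted p = 0.028), and it was higher on 3 of 3 arrays at 72 h than on any array at 48 h. Over the alternatives tried the adjusted p of this difference ran from 0.0188 to 0.168, with 6 of 17 past the threshold.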

How the results depend on the processing

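Klrk1 and Sdc1 at 72 h against control kept their call when any 1 array was left out (0.83 to 0.96 and 0.60 to 0.69, adjusted p up to 0.0461 and 0.0376). Leaving out 1 array at a time, Cd79b at 72 h ran from 0.53 to 0.77 and passed in 2 of 9, and Klrk1 at 72 h against 48 h ran from 0.86 to 1.06 and passed in 1 of 9, so that 0 to 1 members were called higher there. Deviations of same-numbered arrays correlated at -0.302 to 0.209, the highest between control 3 and Dox 72 h 3. Arrays of different numbers were not set beside them, so whether the numbers pair the samples was not settled. With the replicate number as a block, members called higher at 72 h went from 3 to 1 (Sdc1), and those at 72 h against 48 h from 1 to 0, with Klrk1 at 0.90 (adjusted p = 0.0546) and 0.95 (adjusted p = 0.127) and Cd79b at 0.68 (adjusted p = 0.0768). The block called 254 probe sets higher and 73 lower at 48 h, 133 and 125 at 72 h, and 0 and 11 between the time points.

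Fits on the groups compared only called 276 and 113 at 48 h, 184 and 186 at 72 h and 17 lower between the time points, where Klrk1 at 0.95 (adjusted p = 0.126) left 0 members, and Cd79b at 0.68 gave adjusted p = 0.102. Without control 3 and Dox 72 h 3 together, 0 members were called at 72 h against control or 48 h, with Klrk1 at 0.93 against both, Cd79b at 0.54 and Sdc1 at 0.57. Counts of probe sets were then 109 lower at 48 h, 171 and 128 at 72 h, and 0 higher and 10 lower between the time points. Sdc1 at 48 h passed with dim probe sets removed (0.37, adjusted p = 0.0398) and with array weights (0.37, adjusted p = 0.0336), making 1 member called. Its other probe set gave -0.031 and -0.044 at 48 h and 72 h and -0.013 between them. Between the time points, probe sets called higher numbered 5 with quantile normalization, 12 with dim ones removed (173 lower), 9 with a trended prior and 6 with array weights. Median centring raised the share of higher calls at 72 h from 46.6% to 61.4%. Over single arrays left out, counts ran from 220 to 496 higher and 69 to 220 lower at 48 h, 131 to 375 and 138 to 476 at 72 h, and 0 to 3 and 13 to 60 between the time points. The cause of these shifts was not tested.

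Of the values that changed sign, 1 had been called, Sdc1 at 72 h with its other probe set (above). Among members with 1 array left out these ran at 48 h from -0.51 to 0.22 for Cd3g, -0.0084 to 0.29 for Cd79a, -0.11 to 0.039 for Gzma, -0.28 to 0.33 for Gzmb and -0.16 to 0.046 for Klrk1, and for Cd79a at 72 h against 48 h from -0.086 to 0.93. Without both arrays Cd3g, Gzma, Gzmb and Klrk1 at 48 h were 0.22, 0.039, 0.33 and 0.0042, and Cd79a at 72 h against 48 h -0.086. Centring gave Gzma 0.013 and Gzmb 0.029 at 48 h, and quantile normalization Gzmb 0.022. With 1 array left out, at 48 h Cd3d ran from -0.18 to 0.0001, H60b from -0.39 to 0.025, H60c from -0.0017 to 0.022, Jchain from -0.035 to 1.78, Ms4a1 from -0.24 to 0.090, Ncr1 from -0.095 to 0.15, Pax5 from -0.13 to 0.12, Prf1 from -0.031 to 0.083, Sdc4 from -0.057 to 0.19 and Syk from -0.067 to 0.056. At 72 h against control Btk ran from -0.080 to 0.0095, Cd3e from -0.26 to 0.15, H60c from -0.19 to 0.0080, Hcst from -0.055 to 0.26, Pax5 from -0.01 to 0.38 and Prdm1 from -0.11 to 0.072. Between the time points Csf1r ran from -0.10 to 0.038, Ncr1 from -0.081 to 0.17, Sdc2 from -0.053 to 0.12 and Stx11 from -0.033 to 0.029. Without both arrays, Cd3d (0.0001) and Ms4a1 (0.090) at 48 h, Btk (0.034), Pax5 (-0.0068) and Prdm1 (0.074) at 72 h and Sdc2 (-0.0040) between the time points also changed sign. Median centring turned Btk (0.049), Cd3e (0.0051), Prdm1 (0.074) and Xbp1 (0.017) at 72 h, Pax5 (0.026) and Syk (0.019) at 48 h, and Csf1r (0.032) and Xbp1 (0.026) between the time points. Quantile normalization turned Cd3e (0.017) and Prdm1 (0.085) at 72 h and Pax5 (0.017) at 48 h, and array weights Ncr1 (-0.016) and Pax5 (0.022) at 48 h, Prdm1 (0.0087) at 72 h and Sdc2 (-0.029) between the time points.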
